A study of Homo sapiens with 8 samples.

Results

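The genes described here are those of cholesterol and fatty acid synthesis: 31 named genes, comprising 18 enzymes of the sterol branch, 9 enzymes of the fatty acid branch, and 4 regulators and carriers. Each gene was represented by the probe set, among those annotated to that gene symbol alone, with the highest mean over the 8 arrays. Of the 18244 genes so measured, 30 were members. No probe set carried the symbol FDFT1 alone, and that gene was not analysed here. Of the 30, 28 passed the filter on low signal and were tested among 11926 genes. HSD17B7 lay above the array median on 1 array and STARD4 on 0.

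The arrays measured RNA of 2 human lung adenocarcinoma cell lines, A549, which has no activating EGFR mutation, and HCC827, which has one. Each line was grown on plastic dishes (2D) for 7 days or on a collagen scaffold (3D) for 14 days, without inhibitor or with gefitinib, an inhibitor of the EGFR kinase, at 1 µM. Seeding was 200000 cells in 2D and 100000 in 3D. Each of the 8 combinations had 1 array and no replicate, so that 2 arrays per line shared a culture and 4 shared a line. In 3D, gefitinib was given after day 11 for 3 days; the labels' wording leaves the start in 2D unclear. RNA came from frozen, bead-lysed scaffolds with a micro kit in 3D and with a mini kit in 2D.

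Sterols are built from acetyl-CoA through mevalonate, farnesyl diphosphate, squalene and lanosterol, and fatty acids from acetyl-CoA through malonyl-CoA, with later elongation and desaturation. Both branches are driven by the SREBP transcription factors, made from SREBF1 and SREBF2, which stay bound to SCAP in the endoplasmic reticulum while sterols are plentiful and travel to the Golgi for cleavage when sterols run short. SREBP-2 acts mainly on sterol enzymes and SREBP-1 mainly on fatty acid enzymes, and INSIG1, itself a target, holds SCAP back. Growth factor signalling through AKT and mTORC1 is known to raise SREBP activity, and alveolar type II cells of the lung use these pathways to make surfactant lipid.

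Checks of the labels came first. The line labels matched the markers: ALDH1A1 lay between 13.70 and 14.17 (log2 signal) in A549 and between 6.33 and 6.70 in HCC827, while CDKN2A lay between 6.52 and 6.85 in A549 and between 12.45 and 13.17 in HCC827. In the HCC827 2D pair, genes of EGFR output ran opposite to the 3D pair. DUSP6, a phosphatase gene induced by ERK signalling, read 11.48 on the HCC827 3D control array and 8.16 on the 3D gefitinib array, but 6.57 on the array labelled 2D control and 10.21 on the array labelled 2D gefitinib. The other checks of EGFR output, ETV5, SPRY4, CCND1 and MKI67, had the same opposite signs between the HCC827 pairs. The labels were kept as given, and results that use this pair were repeated without it where a value remained.

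RNA quality also moved with culture. The actin control probe sets were 1.67 to 2.64 log2 units stronger at the 3′ end than at the 5′ end on the 4 arrays of 3D culture, against -0.14 to -0.05 in 2D. The GAPDH controls gave 0.54 to 1.57 in 3D and -0.04 to 0.01 in 2D. On both measures, the HCC827 3D gefitinib array stood above the HCC827 3D control array, at 2.64 against 2.34 for actin and 1.57 against 0.97 for GAPDH.

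Promoter windows are shown for 4 genes: SREBF2, the 1 member whose window held the sterol regulatory element searched for, and INSIG1, SCD and MSMO1, which differed strongly between the HCC827 arrays. Each runs 5′ to 3′ over the 250 bases before the start site in RefSeq (GRCh38.p14), in lower case. Capitals mark TCACNCCAC, a form of the sterol regulatory element that SREBPs bind, in which N is any base, or CCAAT, the NF-Y box, which appears as ATTGG when it lies on the other strand.
SREBF2 (chr22:41832855-41833104, plus strand): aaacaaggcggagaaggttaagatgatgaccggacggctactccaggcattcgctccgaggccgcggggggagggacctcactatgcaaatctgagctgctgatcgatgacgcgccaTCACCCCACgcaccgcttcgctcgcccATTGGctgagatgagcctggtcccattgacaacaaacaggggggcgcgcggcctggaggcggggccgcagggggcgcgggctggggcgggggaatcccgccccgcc
INSIG1 (chr7:155297628-155297877, plus strand): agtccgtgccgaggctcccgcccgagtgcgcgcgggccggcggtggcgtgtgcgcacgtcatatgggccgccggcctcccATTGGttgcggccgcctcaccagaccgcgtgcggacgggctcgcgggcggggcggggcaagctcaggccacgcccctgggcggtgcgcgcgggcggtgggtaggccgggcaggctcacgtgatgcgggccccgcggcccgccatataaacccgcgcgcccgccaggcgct
SCD (chr10:100346983-100347232, plus strand): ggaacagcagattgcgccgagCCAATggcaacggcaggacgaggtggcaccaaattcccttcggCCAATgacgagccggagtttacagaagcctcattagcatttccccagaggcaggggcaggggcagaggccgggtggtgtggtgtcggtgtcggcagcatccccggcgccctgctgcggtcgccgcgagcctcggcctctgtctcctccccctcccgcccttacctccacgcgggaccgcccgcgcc
MSMO1 (chr4:165327419-165327668, plus strand): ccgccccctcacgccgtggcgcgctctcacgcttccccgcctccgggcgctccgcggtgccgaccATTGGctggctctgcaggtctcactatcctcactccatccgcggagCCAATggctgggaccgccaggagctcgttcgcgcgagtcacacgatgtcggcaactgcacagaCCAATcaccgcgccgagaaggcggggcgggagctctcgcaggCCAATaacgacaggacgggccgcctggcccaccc

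In the SREBF2 window the element spans positions -133 to -125 and an inverted CCAAT box starts at -106. The INSIG1 window holds an inverted CCAAT box at -170. SCD has a box at -229 and another at -186, and MSMO1 has 4, the nearest at -34. Windows were found for 25 of the 28 tested members; ACAT2, SQLE and FASN had no entry. On either strand, CCAAT was in the windows of 18 of these 25 genes (72.0%), against 41.5% of 9807 tested genes with a window and 32.0% of all 35116 windows. The Sp1 box GGGCGG was in 24 of 25 (96.0%), against 74.2% of tested genes and 42.6% of all windows. TCACNCCAC was in 1 of 25 members, 1.21% of tested genes and 0.883% of all windows. No motif contains another. These matches describe letters in a window and were not tested as binding sites.

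**Figure D1:**
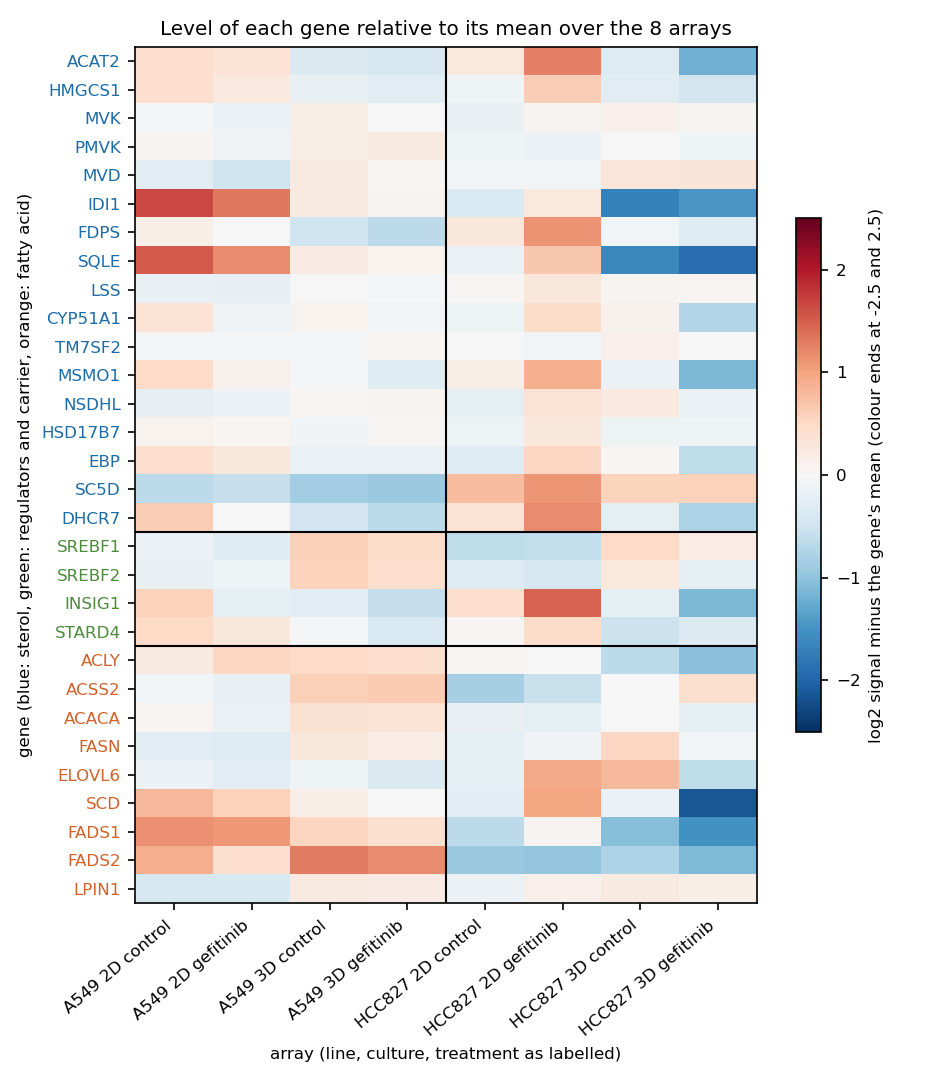
Log2 signal of the 30 measured genes minus each gene's mean over the 8 arrays, with genes in rows by branch and arrays in columns. IDI1 and SQLE run from high in A549 2D to low in HCC827 3D, and SCD is lowest on the HCC827 3D gefitinib array, at 8.90.

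Across the 8 arrays the members varied to very different degrees. SQLE, squalene epoxidase, spanned 3.45 log2 units, IDI1, isopentenyl-diphosphate isomerase, 3.33 and SCD, stearoyl-CoA desaturase, 3.13. TM7SF2, a sterol C14 reductase, spanned 0.18, from 9.37 to 9.55. MVK and PMVK, the mevalonate and phosphomevalonate kinases, stayed between 8.47 and 8.80 and between 9.15 and 9.53. These narrow ranges hold for the probe sets used. Another probe set of each ran from 8.44 to 9.58 for TM7SF2, 7.61 to 8.58 for MVK and 8.27 to 9.33 for PMVK.

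Gefitinib in HCC827 3D culture was accompanied by lower signal for 12 of the 28 tested members and higher signal for 1. The genes that fell came from both branches: SCD and ELOVL6, which desaturate and elongate fatty acids, fell furthest, followed by MSMO1, INSIG1, ACAT2 and CYP51A1. Among all genes, 27.1% passed the same threshold (limma, Benjamini-Hochberg adjusted p under 0.05), 20.4% lower and 6.73% higher. In the sterol branch 6 of 16 fell, in the fatty acid branch 4 of 9, and among the regulators 2 of 3. Median log2 differences were -0.23, -0.40 and -0.49 in these groups, against -0.11 over all genes.

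SCD, which makes monounsaturated fatty acids, read 10.90 on the HCC827 3D control array and 8.90 on the 3D gefitinib array. Its 2D values were 10.77 and 12.03 (control, then gefitinib as labelled), and in A549 it read 11.85 and 11.61 in 2D and 11.20 and 11.05 in 3D. The HCC827 3D gefitinib value was thus below the other 7 arrays. It fell by 2.00 ± 0.12 (SE of the fit; log2), with an adjusted p of 7.5e-06. ELOVL6, the elongase that extends palmitate, read 9.21 and 7.77 in HCC827 3D, 8.18 and 9.36 in HCC827 2D, and 8.05 to 8.29 on the A549 arrays. Its difference in HCC827 3D was -1.44 ± 0.12 (adjusted p 3.6e-05). These were the 2 members with a decrease of 2-fold or more, which 3.15% of all genes showed; 0 members and 0.797% of all genes were 2-fold or more higher.

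MSMO1, the sterol C4 methyl oxidase, read 9.89 in HCC827 3D control and 8.92 with gefitinib, and its difference was -0.98 (adjusted p 0.00029). In A549 its values were 10.53 and 10.16 in 2D and 10.01 and 9.74 in 3D. ACAT2, which starts the mevalonate route by joining acetyl-CoA units, went from 8.96 to 8.09 (-0.88, adjusted p 0.00051). CYP51A1, lanosterol demethylase, went from 10.18 to 9.35 (-0.83, adjusted p 0.0016), and EBP, a sterol isomerase, from 10.20 to 9.51 (-0.69, adjusted p 0.0023). DHCR7, which completes cholesterol, and NSDHL, a C4 decarboxylase, fell by 0.56 and 0.39. The other 6 enzymes of the mevalonate steps did not pass: HMGCS1, HMG-CoA synthase, was at -0.20 (0.18 in its other probe set), FDPS, farnesyl diphosphate synthase, at -0.25, MVK at -0.06, PMVK at -0.10, MVD at 0.02 and IDI1 at 0.24. SQLE, at -0.30, did not pass either.

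Of the regulators, INSIG1 fell from 9.10 to 8.21 (-0.89 ± 0.16, adjusted p 0.0029) and SREBF2 from 8.97 to 8.48 (-0.49, adjusted p 0.018), while SREBF1 was at -0.28 and did not pass. FASN, fatty acid synthase, fell from 9.07 to 8.50 (-0.58, adjusted p 0.0063) and FADS1, the delta-5 desaturase, from 9.16 to 8.72 (-0.44, adjusted p 0.021). ACSS2, which makes acetyl-CoA from acetate, was the member that rose, from 8.65 to 9.06 (0.41, adjusted p 0.038). ACLY, which makes acetyl-CoA from citrate, was at -0.40 and ACACA, acetyl-CoA carboxylase, at -0.24, neither past the threshold.

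These are differences between 1 array and 1 array, with an error taken from A549 that assumes HCC827 varied alike. A smaller prior on that error (2.36 in place of 9.06 degrees of freedom) left 0 of 28 members and 0% of all genes past the threshold. In that limma fit 13 members and 3322 of 11926 genes had an unadjusted p under 0.05. Cyclic loess scaling moved the all-gene median to 0.04 and the share of calls that were higher among all genes from 24.8% to 56.5%, and ended the calls of NSDHL, DHCR7, SREBF2 and FADS1. The RNA integrity gap within this pair, given above, ran alongside, and its part was not tested. Over the members' 69 probe sets with adequate signal, 58 were below 0. Of all genes, by the probe set used, 64.9% were below 0, and the share over all probe sets was not counted. For SCD the other probe sets gave -0.32, -0.48 and -0.75 against -2.00 in the one used, and for CYP51A1 averaging the probe sets gave -0.29, no longer past the threshold (adjusted p 0.054).

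In HCC827 2D, as labelled, the members lay the other way: 14 of 28 were higher on the array labelled gefitinib and 0 lower, where 22.4% of all genes passed, 9.96% higher and 12.4% lower. The sterol branch carried 10 of its 16 tested enzymes, the fatty acid branch 3 of 9 (SCD, ELOVL6 and FADS1), and the regulators INSIG1. Median differences were 0.62 in the sterol branch, 0.27 in the fatty acid branch and 0.01 among regulators, against -0.05 over all genes. SCD was 1.25 ± 0.12 higher (adjusted p 6.1e-05), ELOVL6 1.18 ± 0.12 (9.5e-05) and INSIG1 1.06 ± 0.16 (0.0011). These 3 were the members with an increase of 2-fold or more, which 2.36% of all genes showed; 0 members and 1.62% of all genes were 2-fold or more lower.

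Among sterol enzymes in this pair, ACAT2 read 9.54 and 10.54, a difference of 0.99 (adjusted p 0.00022). FDPS went from 10.45 to 11.29 and SQLE from 8.91 to 9.74. HMGCS1 rose by 0.71, IDI1 by 0.65 and MSMO1 by 0.73. SREBF1 and SREBF2, at 0.01 and -0.10, did not pass, nor did ACLY (-0.01), ACACA (-0.04), FASN (0.16) or FADS2, the delta-6 desaturase (-0.05). With the smaller prior 0 of 28 members and 0% of all genes passed here too. In that limma fit 14 members and 2898 of 11926 genes had an unadjusted p under 0.05. HSD17B7 and STARD4, outside the filter, gave 0.40 and 0.43 when all genes were fitted without it (adjusted p 0.035 and 0.019).

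The gefitinib difference was lower in 3D than in 2D for 14 of 28 members and higher for 0, where 32.6% of all genes passed, 19.3% lower and 13.3% higher. SCD differed by -3.26, ELOVL6 by -2.62, INSIG1 by -1.95 and ACAT2 by -1.87. Cyclic loess moved the share of calls that were higher among all genes from 40.8% to 54.3%. Whether the labels of the HCC827 2D arrays were exchanged was not tested; an exchange would turn the sign of every difference in that pair. With the sign turned, the difference would be -0.75 for SCD, -0.26 for ELOVL6, 0.17 for INSIG1 and 0.12 for ACAT2, and 12 of 28 members would lie below 0; these values have no test. With the smaller prior 7 members passed, among 7.16% of all genes: ACAT2, FDPS, MSMO1, EBP, ELOVL6, SCD and FADS1. In sign, 18 of 28 members (64.3%) were above 0 in 2D and below 0 in 3D, against 33.1% of all genes. Genes below 0 in the HCC827 pairs made up 58.2% of all genes in 2D and 64.9% in 3D, and 6 and 24 of the 28 members. Across the 28 members the differences in both cultures had a Pearson correlation of -0.64, against -0.56 over all genes; the points share arrays and their scaling. DUSP6 had the same reversal of sign, at 3.64 in 2D and -3.32 in 3D.

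**Figure D2:**
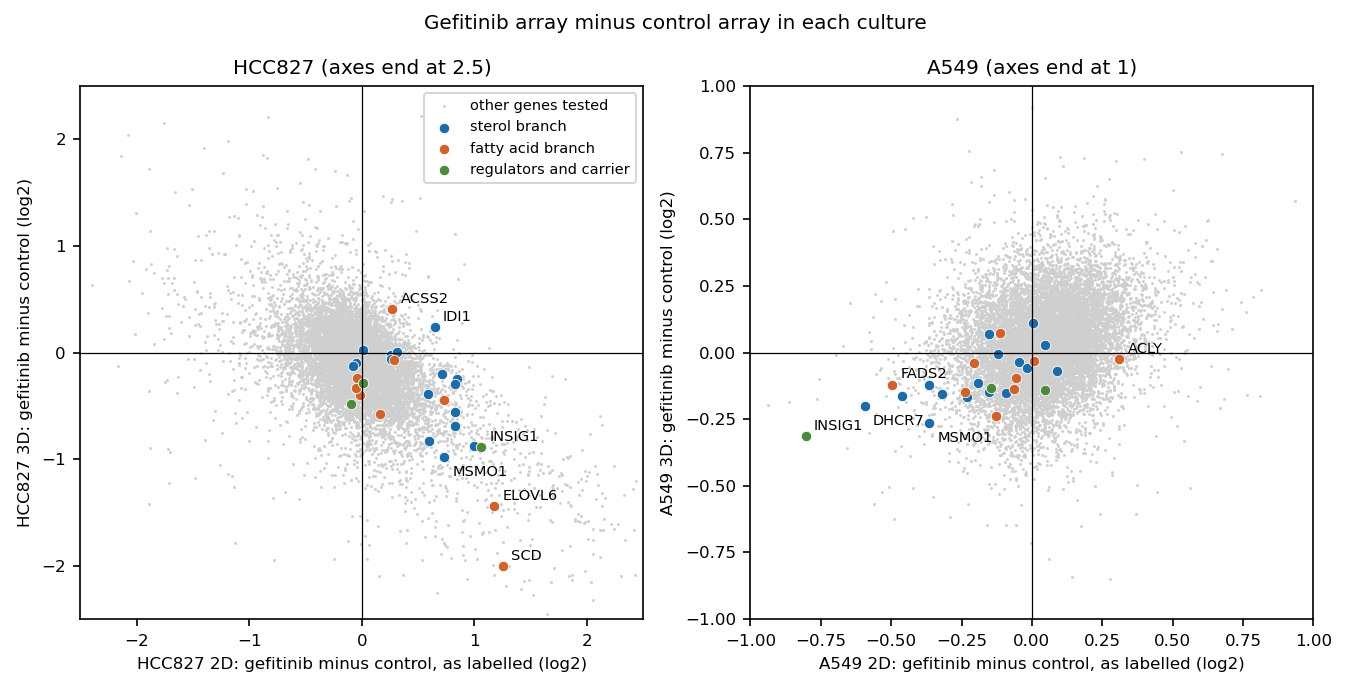
Gefitinib minus control (log2) in 3D against the same difference in 2D, with HCC827 on the left and A549 on the right; coloured points are the 28 tested members by branch and grey points the other genes. In HCC827, 18 members lie at lower right, with SCD at 1.25 and -2.00; in A549, 20 lie at lower left, with INSIG1 at -0.80 and -0.31.

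In A549, gefitinib left no member past the threshold, and the differences were small. The tested mean over both cultures called 0 of 28 members and 0.0% of all genes in either direction, and 0 members reached an unadjusted p under 0.05. The error of that fit includes the HCC827 2D pair as labelled. Without the HCC827 2D arrays, 0 members and 0% of all genes passed again. In that limma fit 9 of 28 members reached an unadjusted p under 0.05. Among all genes 1464 did so, against 86 with every array kept. The member median was -0.12, with 24 of 28 below 0, and the all-gene median 0.04. INSIG1 read 9.90 and 9.10 in 2D and 9.04 and 8.73 in 3D, pair differences of -0.80 and -0.31. DHCR7 read 9.80 and 9.21 in 2D and 8.72 and 8.52 in 3D. In both, the gefitinib array was the lower of each pair. Pair differences were -0.46 and -0.16 for CYP51A1, -0.37 and -0.27 for MSMO1, and -0.50 and -0.12 for FADS2.

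By sign, 22 of 28 members were below 0 in A549 2D, against 39.2% of all genes, and 24 of 28 in 3D, against 41.2%. In both cultures together it was 20 of 28 (71.4%), against 20.0% of all genes. This was 12 of 16 in the sterol branch, 6 of 9 in the fatty acid branch and 2 of 3 regulators. No member differed 2-fold in A549, where 0.0168% of all genes were 2-fold lower and 0.00839% higher in 2D, and 0.0% and 0.00839% in 3D. The correlation of both pairs across the 28 members was 0.61, against 0.24 over all genes. Of the members' 69 probe sets, 61 were below 0 in 2D and 56 in 3D, and the share over all probe sets was not counted.

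The gefitinib difference of HCC827 3D lay below that of A549 for 6 of 28 members and above it for 0; among all genes 20.5% passed, 16.9% lower and 3.54% higher. The 6 were SCD (-1.81), ELOVL6 (-1.26), ACAT2 (-0.83), MSMO1 (-0.66), EBP (-0.63) and FASN (-0.50). INSIG1 (-0.33) and DHCR7 (-0.16), both below 0 in A549 too, did not pass. The HCC827 2D difference as labelled lay above that of A549 for 14 members and below it for 0, among 19.7% of all genes, 7.4% higher and 12.3% lower; INSIG1 at 1.62 and SCD at 1.45 led. These comparisons were added after the data were seen, and with the smaller prior 0 members and 0% of all genes passed in either. Under cyclic loess, 3 of the 6 calls below A549 remained (SCD, ELOVL6 and ACAT2), with 2 members above and 3 below, among 12.4% of all genes. The share of calls that were higher among all genes moved from 17.3% to 49.8% in 3D and from 37.5% to 50.7% in 2D. With the mean of all probe sets, 2 members lay above A549 and 6 below in 3D, among 17.9% of all genes. Of those calls over all genes, 19.8% were higher.

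In A549, both SREBP genes were higher in 3D than in 2D culture in the probe sets used. The isomerase of the mevalonate pathway was lower. For SREBF2 the other probe sets gave 0.13 and 0.07. ACSS2, SREBF1, SREBF2, LPIN1 and MVD rose, by 0.52 to 0.76, and IDI1 fell by 1.35. These were 5 higher and 1 lower of 28, among 22.3% of all genes, 16.3% higher and 6.01% lower. The sterol median was -0.38, with 10 of 16 below 0, the fatty acid median 0.43 and the regulator median 0.66, against 0.13 over all genes.

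IDI1 read 9.98 and 9.66 in A549 2D and 8.55 and 8.39 in 3D, and the arrays of each culture did not overlap (-1.35 ± 0.15, adjusted p 0.018). SQLE read 10.62 and 10.25 in 2D and 9.29 and 9.17 in 3D, but its difference of -1.21 ± 0.30 did not pass (adjusted p 0.055). SREBF1 read 9.35 and 9.20 in 2D and 10.10 and 9.96 in 3D (0.75 ± 0.14, adjusted p 0.031). SREBF2 read 8.53 and 8.57, then 9.28 and 9.14 (0.66 ± 0.15, adjusted p 0.046). ACSS2 read 8.57 and 8.46, then 9.24 and 9.31 (0.76 ± 0.12, adjusted p 0.025). LPIN1, a phosphatidate phosphatase of glycerolipid synthesis, and MVD, which decarboxylates mevalonate diphosphate, rose by 0.62 and 0.52 (adjusted p 0.049 and 0.042). MVD, SREBF2 and LPIN1 did not pass when no filter was applied (adjusted p 0.058, 0.055 and 0.065). Cyclic loess gave 2 higher and 2 lower members, among 18.8% of all genes, and ended the same 3 calls. It moved the all-gene median to 0.00 and the share of calls that were higher among all genes from 73.1% to 53.2%. Error in this fit comes from both lines, and leaving out an array of 1 line leaves it to the other line. Leaving out any 1 of the 4 A549 arrays left 0 of 28 and 0% of all genes past the threshold, and leaving out any 1 of the 4 HCC827 arrays gave 21 members and 64.1% of all genes.

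In HCC827, 3D culture had 5 members past the threshold: SREBF1 (0.96 ± 0.14, adjusted p 0.015) and ACSS2 (0.91 ± 0.12, 0.014) rose, and SQLE (-2.01 ± 0.30, 0.016), IDI1 (-1.50 ± 0.15, 0.011) and ACLY (-0.87 ± 0.17, 0.025) fell. That was 2 higher and 3 lower of 28, among 33.4% of all genes, 19.7% higher and 13.7% lower. IDI1 read 7.95 and 8.60 in 2D and 6.65 and 6.89 in 3D. SQLE read 8.91 and 9.74 in 2D and 7.46 and 7.17 in 3D. SREBF1 read 8.87 and 8.88 in 2D and 9.98 and 9.70 in 3D. For these the cultures did not overlap within the line. The sterol median was -0.44, with 12 of 16 below 0, and the fatty acid median 0.01, against 0.08 over all genes.

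The size in HCC827 depended on which arrays were paired. Each pairing sets 1 array against 1 array, with the error taken from A549 alone (7 coefficients). Over all HCC827 arrays that error model by itself gave 21 of 28 members and 69.5% of all genes, against 5 members above. The counts of calls in the pairings are therefore not comparable with those 5. Between the control arrays 10 members were higher and 9 lower in 3D, among 58.3% of all genes, 35.6% higher and 22.7% lower, and the sterol median was -0.06. Between the arrays labelled gefitinib 3 were higher and 16 lower, among 64.7%, 33.9% higher and 30.8% lower, and the sterol median was -1.11. SCD differed by 0.13 in the first pair and -3.13 in the second, and ELOVL6 by 1.03 and -1.59. SQLE (-1.45 and -2.58), IDI1 (-1.30 and -1.71), ACLY (-0.68 and -1.06), SREBF1 (1.11 and 0.82) and ACSS2 (0.84 and 0.97) kept their direction in both. In the fit over all arrays, leaving out any 1 of the 4 A549 arrays left 0 of 28 and 0% of all genes past the threshold, and any 1 of the 4 HCC827 arrays gave 19 members, with 58.3% or 64.7% of all genes.

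The test of whether the lines differed in the culture effect called 0 of 28 members and 0.0% of all genes. In this limma fit 1 member and 1696 of 11926 genes had an unadjusted p under 0.05. The next values are of the same test. Its member median was -0.26, with 24 of 28 below 0, and the all-gene median -0.08. It called 19 members and 38.0% of all genes without either HCC827 control array, and 4 members and 30.4% without either array labelled HCC827 gefitinib. Without the HCC827 2D arrays, the A549 culture difference called 21 of 28 members, the 6 named above among them, and 64.1% of all genes. STARD4, a sterol carrier outside the filter, gave -0.59 in A549 and -0.68 in HCC827 (adjusted p 0.027 and 0.014).

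**Figure D3:**
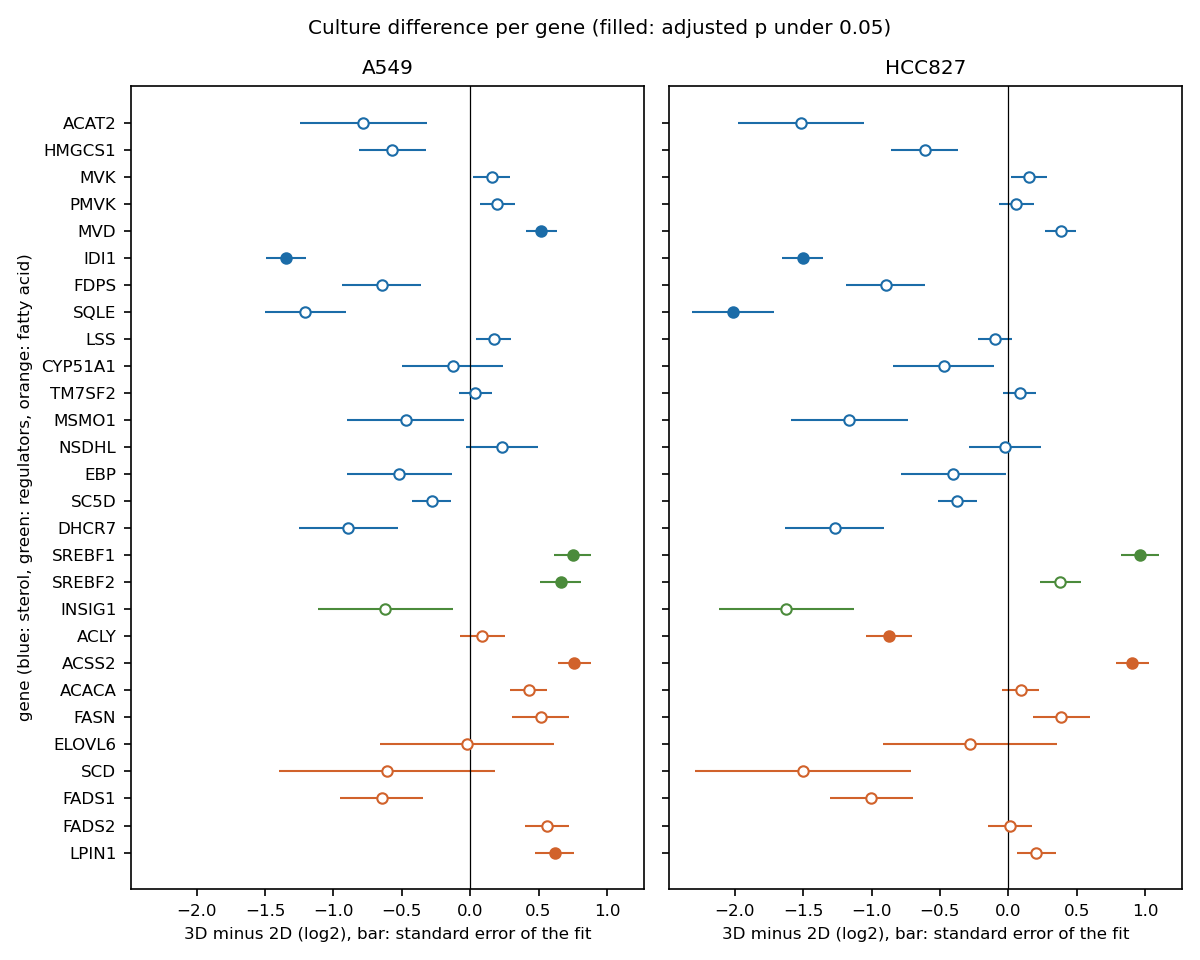
3D minus 2D (log2) for the 28 tested members in A549 and HCC827; points are fitted differences, bars standard errors, and filled points an adjusted p under 0.05. IDI1 is filled below 0 in both lines (-1.35 and -1.50), and SREBF1 (0.75 and 0.96) and ACSS2 (0.76 and 0.91) above 0 in both.

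Probe sets of a gene often disagreed on culture, and on gefitinib too. Of the 23 genes with several probe sets, 15 had one sign in the A549 culture difference and 8 did not. In the HCC827 culture difference it was 17 and 6, and between lines 21 and 2. For gefitinib the signs differed in 6 genes in HCC827 3D, 7 in HCC827 2D, 7 in A549 3D and 5 in A549 2D. The values that follow are A549 culture differences. CYP51A1 gave -0.13 in the probe set used and -1.93 in the other. HMGCS1 gave -0.57 and -1.64, IDI1 -1.35 and -2.15, and MSMO1 -0.47, -1.06 and -1.87. ACLY gave 0.09 and -1.04, and SREBF2 gave 0.66, 0.13 and 0.07. In A549 26 of 40 sterol probe sets were below 0, and in HCC827 31 of 40, and the share over all probe sets was not counted. With the mean of all probe sets SREBF1, SREBF2, ACSS2 and LPIN1 no longer passed in A549. The 3′ to 5′ gap of the control probe sets, culture time, cells seeded and the RNA kit differed between cultures. They differed in the same direction in both lines and cannot be told apart from culture.

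**Figure D4:**
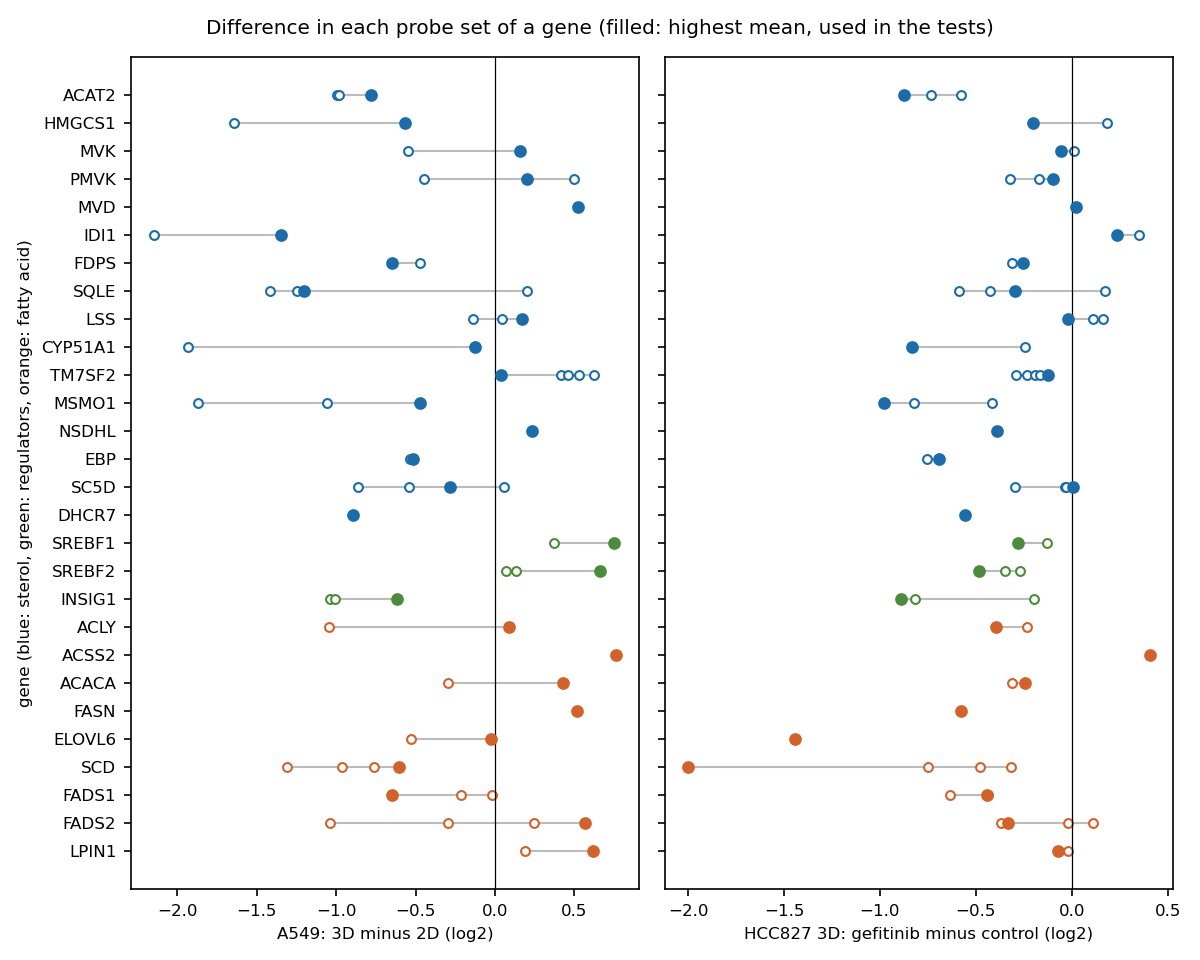
Differences (log2) in each probe set with adequate signal for the 28 tested members, with 3D minus 2D in A549 on the left and gefitinib minus control in HCC827 3D on the right; filled points are the probe sets used. The A549 culture values spread by up to 1.80 within a gene (CYP51A1), and the gefitinib values by up to 1.68 (SCD).

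Between the lines, averaged over culture and treatment, SC5D was higher in HCC827 and 6 members were lower: FADS2, IDI1, FADS1, SQLE, ACLY and ACSS2. Among all genes 48.1% passed, 22.0% higher and 26.1% lower; the members' share was not tested against it. The sterol branch had 1 higher and 2 lower of 16 with a median of 0.01, the fatty acid branch 0 higher and 4 lower of 9 with a median of -0.49, and the regulators 0 of 3, against an all-gene median of -0.03.

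SC5D, the sterol C5 desaturase, lay between 8.89 and 9.25 on the A549 arrays and between 10.38 and 10.91 on the HCC827 arrays (1.51 ± 0.10, adjusted p 0.0012). FADS2 read 10.30, 9.81, 10.68 and 10.56 in A549 (2D control, 2D gefitinib, 3D control, 3D gefitinib) and 8.46, 8.40, 8.61 and 8.27 in HCC827. The lines did not overlap, with a difference of -1.90 ± 0.11 (adjusted p 0.00089). FADS1 read 11.38, 11.32, 10.77 and 10.64 in A549 and 9.58, 10.30, 9.16 and 8.72 in HCC827, again without overlap (-1.59 ± 0.22, adjusted p 0.0061). FADS1 and FADS2, which act in series on polyunsaturated fatty acids, lie on opposite strands of chromosome 11. RefSeq start sites (GRCh38.p14) are at 61817003 on the minus strand for FADS1, and at 61816203 and 61816404 on the plus strand for FADS2. By these sites the 5′ ends of the genes overlap, by 800 and 599 bases.

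IDI1 differed by -1.62 ± 0.10 (adjusted p 0.0011) and SQLE by -1.51 ± 0.21 (0.0066); for both, the arrays of the lines overlapped. ACLY read 12.37 to 12.68 in A549 and 11.10 to 12.18 in HCC827 (-0.83 ± 0.12, adjusted p 0.007), and ACSS2 differed by -0.49 ± 0.09 (0.012), with overlapping ranges of 8.46 to 9.31 and 7.82 to 9.06. Without the HCC827 2D arrays the comparison is that in 3D, where 16 of 28 members and 69.0% of all genes passed, the members 3 higher and 13 lower; the 7 named genes were among them, with FADS2 at -2.18 and SC5D at 1.46. Leaving out 1 A549 array gave 3 or 4 members and 15.4% to 15.9% of all genes, and 1 HCC827 array gave 20 or 23 members and 70.5% to 72.0%.

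Other genes of lipid metabolism were read from lists. In HCC827 3D with gefitinib, where 20.4% of all genes were lower and 6.73% higher, the SREBP processing list had 0 higher and 2 lower of 5: INSIG2, the second SCAP anchor (-1.01), and MBTPS2, the site-2 protease (-0.44). Sterol transport and LXR targets had 0 higher and 5 lower of 12, among them TMEM97, a sterol-responsive membrane protein (-1.04), VLDLR, a lipoprotein receptor (-0.95), SOAT1, which esterifies cholesterol (-0.85), and SCARB1, the HDL receptor (-0.82). Other lipid synthesis enzymes had 0 higher and 5 lower of 13, among them HSD17B12, a reductase of fatty acid elongation (-0.84), and ACSL4, an acyl-CoA synthetase (-0.65). Fatty acid oxidation had 2 higher and 0 lower of 12: SLC25A20, the carnitine carrier (0.62), and CPT1A, which starts mitochondrial import (0.55).

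In HCC827 2D as labelled, where 9.96% of all genes were higher and 12.4% lower, the same lists had 1 higher of 5 (INSIG2, 0.42), 3 higher and 1 lower of 12 (TMEM97 at 1.57, LIPA, the lysosomal lipase, at -0.48), 4 higher of 13 (HSD17B12 at 0.80, LBR, a second C14 reductase, at 0.68) and 1 lower of 12 (PPARA at -0.47). In A549 with gefitinib none of these genes and 0.0% of all genes passed. On the mean over both cultures 11 of 12 oxidation genes were above 0, with a median of 0.14 against 0.04 over all genes. In the single pairs 2 of 12 were below 0 in 2D and 1 of 12 in 3D, against 39.2% and 41.2% of all genes.

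With 3D culture, other lipid synthesis enzymes had 1 higher and 1 lower of 13 in A549, among 16.3% of all genes higher and 6.01% lower, and 1 higher and 4 lower in HCC827, among 19.7% and 13.7%. Oxidation genes had 1 higher and 2 lower of 12 in each line, SREBP processing 1 and 1 of 5 in each, and sterol transport 2 and 0 of 12 in A549 and 1 and 1 in HCC827. SCAP, the sterol sensor, rose in A549 (0.73) and HCC827 (0.77), and RNF139, a ligase of the endoplasmic reticulum, fell in both (-0.71 and -0.99). ACACB, the mitochondrial acetyl-CoA carboxylase, rose in both (1.31 and 0.52), and ME1, the NADPH-producing malic enzyme, fell in both (-1.53 and -1.77). Among oxidation genes ACADVL rose (1.04 and 1.18) and ACADM fell (-1.13 and -1.27). SCARB1 and STARD3 rose in A549 (1.12 and 0.68). Between lines, where 22.0% of all genes were higher and 26.1% lower, oxidation genes had 3 higher and 7 lower of 12 in HCC827, led by PDK4 (-2.96), PPARGC1A (-2.05) and CPT1A (-1.68), and sterol transport genes 3 higher and 6 lower of 12, led by TMEM97 (-2.15).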

How the data were processed

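Per the submitters' processing notes, the authors normalised the arrays by RMA in R 3.2.1 and deposited log2 signal per probe set; for the genome build, the sources used here name none. Of 49495 probe sets, 102 were controls, 45278 had 1 gene symbol in the platform annotation, 1333 several and 2782 none listed. Arrays have no read depth; their number limits the precision. Genes were tested where signal exceeded the array median on at least 2 arrays. Line, culture and A549 gefitinib effects came from limma 3.58.1 (R 4.3.3; lmFit, eBayes with trend) with 6 coefficients and 2 residual degrees of freedom, taken from how gefitinib effects differed between cultures. HCC827 gefitinib effects used 7 coefficients, a free mean per HCC827 array, and 1 residual degree of freedom from A549. So did the culture differences between single HCC827 arrays. On simulated data this second model called more unchanged genes than its threshold states. p-values were adjusted (Benjamini-Hochberg) over 11926 genes, threshold 0.05. With 1 array per condition, the error behind these p-values is how gefitinib effects differed between cultures, not a spread between replicates. That error may be technical. In the 6-coefficient fit it includes the HCC827 2D pair as labelled. Members and lists were chosen with earlier results of these data known. All members could be named, and of each other list up to 4 genes past the threshold with the largest differences. Alternatives were other probe set rules, filters, cyclic loess scaling, the other model and arrays left out. Some genes of the other lists were not analysed here.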

Additional observations from a re-analysis of the deposited data

Results flagged for a closer look

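Within HCC827, the gefitinib difference in 3D minus that in 2D as labelled passed the threshold (limma, adjusted over all genes) for 14 members, all lower in 3D, with a background of 19.3% of all genes. In the sterol branch the values were -1.87 for ACAT2, -0.91 for HMGCS1, -1.10 for FDPS, -1.13 for SQLE, -1.43 for CYP51A1, -1.71 for MSMO1, -0.98 for NSDHL, -1.51 for EBP and -1.38 for DHCR7. In the fatty acid branch they were -0.74 for FASN, -2.62 for ELOVL6, -3.26 for SCD and -1.17 for FADS1, and INSIG1 stood at -1.95. DUSP6 differed by -6.96 in the same comparison.

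Between the lines, the gefitinib difference of HCC827 3D minus that of A549 passed for 6 members, where 16.9% of all genes were lower. The values were -0.83 for ACAT2, -0.66 for MSMO1, -0.63 for EBP, -0.50 for FASN, -1.26 for ELOVL6 and -1.81 for SCD. Under cyclic loess 3 of these 6 remained (SCD, ELOVL6 and ACAT2), where 12.4% of all genes passed. Each of these differences rests on 1 array per condition.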

How the results depend on the processing

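No difference past the threshold reversed its direction in the alternatives run. Of these values, 694 kept their call and 135 lost it. Changes of the filter, the prior or the error model leave a difference as it is, so no reversal was possible there. Only other probe set rules, cyclic loess and leaving out arrays that a comparison uses could change a sign. Among members not past the threshold, the sign changed in 203 of 2939 values, 52 of them under another probe set rule. Counts of members called moved as follows, out of 28 unless stated, with the share of all genes called. The error model with residuals from A549 alone gave 20 between lines (75.0%; 7 as reported), 21 for culture in A549 (64.1%; 6), 21 in HCC827 (69.5%; 5) and 9 for the line difference in culture effect (33.0%; 0). Taking the probe set with the largest variance gave 11 of 26 for culture in A549 (40.7%) and 15 of 26 in HCC827 (51.3%), and the mean of probe sets 13 in HCC827 (39.2%). In A549 the 11 were 5 higher and 6 lower, against 5 and 1 as reported, and the mean of probe sets gave 2 and 2. Of calls over all genes in A549, 53.3% and 54.8% were higher under these rules, against 73.1% as reported. In HCC827 the 15 were 3 higher and 12 lower and the 13 were 4 and 9, against 2 and 3 as reported. Leaving out the HCC827 2D arrays gave 16 between lines (69.0%) and 21 for culture in A549 (64.1%). The smaller prior, chosen after seeing the data, gave 0 for gefitinib in HCC827 3D (0%) and 0 in 2D (0%). It gave 7 for their difference (7.16%) and 0 for either against A549 (0%). Leaving out 1 array at a time gave 3 to 23 between lines, 0 to 21 for culture in A549, 0 to 19 in HCC827, 0 to 19 for the line difference in culture effect, and 0 to 0 for gefitinib in A549; each low end came from leaving out an A549 array and each high end an HCC827 array. Leaving out an A549 array left the error of these fits to HCC827, and leaving out an HCC827 array left it to A549. HCC827 gefitinib differences and their residual could not change when an array of the other culture was left out. Each HCC827 array has its own mean there and the residual comes from A549, so that step is no check. For these differences, leaving out an A549 array left no residual degree of freedom and no test. No paired analysis was possible because every condition has 1 array, numbered 1, so that groups share a single number.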
